A study of Saccharomyces cerevisiae with 18 samples.

Results

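The 38 genes described here encode the chaperones and heat shock proteins of the yeast cytosol and mitochondria, their cochaperones and the CCT ring of *Saccharomyces cerevisiae*. They were taken by gene name from the annotation column of the count table, with no measured value used, and make up 38 of the 6713 open reading frames (ORFs) counted. All 38 passed the filter on low counts in every fit. By role they are 9 cytosolic Hsp70 genes with an exchange factor (SSA1, SSA2, SSA3, SSA4, SSB1, SSB2, SSE1, SSE2, FES1), the ribosome-associated complex (SSZ1, ZUO1), 2 cytosolic J proteins (YDJ1, SIS1), and Hsp90 with its cochaperones (HSP82, HSC82, STI1, CPR6, CPR7, AHA1, SBA1, CDC37). The rest are the disaggregase with the small heat shock proteins and a sorting factor (HSP104, HSP26, HSP42, BTN2), 5 mitochondrial chaperones (HSP60, HSP10, HSP78, SSC1, MDJ1) and the 8 CCT subunits (TCP1 and CCT2 to CCT8).

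Chaperones of the Hsp70 class bind unfolded stretches of a protein in cycles of ATP hydrolysis that J proteins start and exchange factors such as Sse1 and Fes1 end. Hsp90 acts later on kinases and other clients, Hsp104 pulls proteins out of aggregates, and the CCT ring folds actin and tubulin. Many of these genes are driven by the heat shock factor Hsf1, which binds heat shock elements, or by the general stress factors Msn2 and Msn4, which bind stress response elements.

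TMA20 (MCT-1 in mammals) and TMA64 (eIF2D), the genes deleted, encode proteins that act when ribosomes leave an mRNA after termination or start again on it. BY4741 strains of 4 genotypes were compared in 9 lysates: Δtma20 (TMA20 replaced by KanMX4), ΔΔtma20tma64 (TMA20 replaced by KanMX4 and TMA64 by HygMX4), Δtma64 (TMA64 replaced by KanMX4) and wt. Every strain was MATa and carried his3delta1, leu2delta0, met15delta0 and ura3delta0. Each was grown at 30 °C to exponential phase in minimal SD medium, a yeast nitrogen base with a complete set of amino acids added, and in rich YPD medium, with 1 lysate per strain and medium except for wt in YPD, which had 2 biological replicates, WT1 and WT2. Cells received 100 µg/ml cycloheximide for 3 min before harvest. From each lysate 1 part gave ribosome footprints (Ribo-Seq) and another poly(A) mRNA (RNA-Seq), so that 18 libraries came from 9 lysates. With 1 lysate per mutant and medium, p-values below rest on a spread shared by all lysates of an assay, and the effect of a deletion cannot be told apart from that of the 1 strain isolate and its marker cassette.

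RNA-Seq libraries summed to between 5608491 and 11388027 ORF counts and footprint libraries to between 1668588 and 23532664. Footprint depth was lowest for 2 SD lysates, Δtma20 (1668588) and wt (2337313), and calls lost without both are given as such. Their RNA-Seq libraries were not shallow, at 8533757 and 10464502 ORF counts. Without both, the SD lysates left were those of Δtma64 and ΔΔtma20tma64, neither with TMA64, so that SD against YPD then rests on these strains. TMA20 had at most 16 counts in its deletion lysates, against at least 286 footprints and 879 mRNA counts elsewhere. TMA64 had at most 6 footprints and 7 mRNA counts in its own deletion lysates, against at least 133 and 533 elsewhere. LEU2, MET15 and URA3 had 0 to 2 counts in every library, whereas HIS3, of which his3delta1 leaves a part, was still counted at 98.3 to 152 CPM (counts scaled to a library total of 1000000 ORF counts) in Ribo-Seq. The alpha-factor genes MF(ALPHA)1 and MF(ALPHA)2 had 0 to 15 counts, as in MATa cells. Of the other alpha genes checked, STE3 had 39 to 152 mRNA counts and SAG1 204 to 413. Their footprints were 5 to 73 and 1 to 60. The a genes MFA1, MFA2, STE2, BAR1 and STE6 had at least 227 footprints and 540 mRNA counts in every library. Between WT1 and WT2 the members differed by a median of 0.13 on the log2 scale in footprints and 0.18 in mRNA, without sign. SSA3, with few counts, and HSP26 differed most in footprints, with 335 CPM of HSP26 in WT1 and 164 CPM in WT2.

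The promoters of the members were searched first, because the fold changes below are also given by motif. A heat shock element was taken as GAANNTTCNNGAA or TTCNNGAANNTTC, and a stress response element as AGGGG, both searched on either strand of the 500 bases before the start codon. Overlapping heat shock elements were each counted, and a match is a description of the letters, not a binding site shown here. The patterns allow no mismatch and no other spacing, so the lack of a match does not show that an element is absent. A heat shock element was found before 13 of 38 members (34.2%), against 89 of 5994 ORFs with a matched RefSeq gene (1.48%). At least 1 stress response element stood before 12 members (31.6%), against 34.1% of ORFs, and at least 2 before 8 members (21.1%), against 8.17%. Neither element was found before 17 members, among them SSB1, SSB2, SSZ1, ZUO1, HSC82 and every CCT gene but CCT2. HSP104, HSP42 and HSP78 shared an arrangement, 2 overlapping heat shock elements followed by 3 stress response elements. SSE1 had a single heat shock element, and HSP26 had 3 stress response elements and no match to the heat shock patterns. The stretches are read 5′ to 3′ toward the gene from the R64 assembly of RefSeq, with the triplets of heat shock elements and the whole of stress response elements in capitals.
HSP104, chrXII:88316-88460, forward strand, positions -307 to -163 before the start codon: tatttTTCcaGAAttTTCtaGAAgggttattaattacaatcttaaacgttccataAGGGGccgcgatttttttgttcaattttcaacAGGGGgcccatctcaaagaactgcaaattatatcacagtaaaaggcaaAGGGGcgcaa
HSP42, chrIV:806373-806448, forward strand, positions -248 to -173: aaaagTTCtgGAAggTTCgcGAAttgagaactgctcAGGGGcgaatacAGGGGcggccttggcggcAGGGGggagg
HSP78, chrIV:974364-974495, reverse strand, positions -252 to -121: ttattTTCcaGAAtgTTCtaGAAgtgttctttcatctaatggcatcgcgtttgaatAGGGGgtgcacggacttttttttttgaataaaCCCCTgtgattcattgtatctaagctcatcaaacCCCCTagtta
SSE1, chrXVI:352444-352466, reverse strand, positions -191 to -169: gatgaTTCtaGAAgaTTCctttt
HSP26, chrII:381546-381713, forward strand, positions -484 to -317: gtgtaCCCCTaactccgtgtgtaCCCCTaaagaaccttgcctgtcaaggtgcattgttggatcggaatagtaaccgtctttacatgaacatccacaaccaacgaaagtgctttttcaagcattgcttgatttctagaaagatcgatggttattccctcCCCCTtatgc

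**Figure D1:**
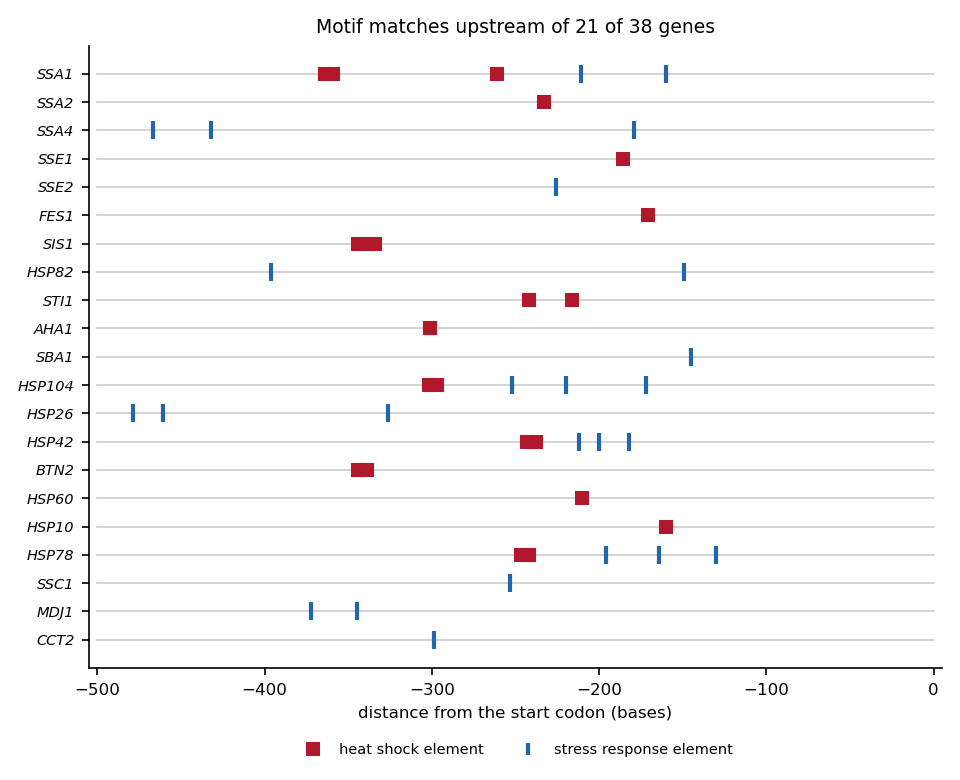
Position of each heat shock element (square) and stress response element (bar) in the 500 bases before the start codon, on the horizontal axis in bases from the start codon, for the 21 of 38 members with a match. HSP104, HSP42 and HSP78 each show heat shock elements farther out than 3 stress response elements, and 4 members in all hold both kinds.

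Several members are near copies of each other, which bears on what a uniquely mapped count can tell. SSA1 and SSA2, the main cytosolic Hsp70 genes, were identical at 96.4% of aligned coding bases, SSB1 and SSB2, the ribosome-bound Hsp70 genes, at 97.4%, and HSP82 and HSC82, the inducible and the constitutive Hsp90 gene, at 91.7%. Of all 28-base windows, about the length of a footprint, 35.3% were unique in the genome for SSA1, 35.0% for SSA2, 39.4% for SSB1, 39.1% for SSB2, 81.8% for HSP82 and 81.7% for HSC82. All windows were unique in 31 members, including SSA3, SSA4, SSE1, SSE2 and HSP104. The first 60 coding bases of the 3 pairs, with differing bases in capitals, show how few positions tell the copies apart: 6 in SSA1 and SSA2, 1 in SSB1 and SSB2, and 2 in HSP82 and HSC82.
SSA1, chrI:141372-141431, reverse strand: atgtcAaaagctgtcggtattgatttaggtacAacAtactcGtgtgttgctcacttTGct
SSA2, chrXII:97426-97485, reverse strand: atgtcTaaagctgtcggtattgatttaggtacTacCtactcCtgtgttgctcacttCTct
SSB1, chrIV:44065-44124, forward strand: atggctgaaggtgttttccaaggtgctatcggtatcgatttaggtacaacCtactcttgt
SSB2, chrXIV:252059-252118, forward strand: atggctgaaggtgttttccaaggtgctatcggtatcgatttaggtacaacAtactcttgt
HSP82, chrXVI:98566-98625, reverse strand: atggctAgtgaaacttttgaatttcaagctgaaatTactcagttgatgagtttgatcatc
HSC82, chrXIII:632355-632414, forward strand: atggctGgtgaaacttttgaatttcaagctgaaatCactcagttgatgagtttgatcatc

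Footprint levels per kb of coding length spanned about 3 orders of magnitude over the members. HSC82 was highest at 1949 ± 198 CPM per kb (SD, n = 9 lysates), followed by SSA2 at 1714 ± 317, HSP60 at 1317 ± 154, HSP10 at 1316 ± 206 and SSC1 at 1299 ± 231. These neighbours in the order, from HSP60 to SSC1, do not differ beyond their spread. For the SSA1, SSA2, SSB1 and SSB2 genes the level is an underestimate, since most of their windows are shared. Per kb of unique windows SSA2 reached 4900 ± 906, SSA1 3298 ± 991, SSB1 2853 ± 320 and HSC82 2386 ± 243 CPM, so that HSC82 was no longer first. At the low end stood the stress-inducible Hsp70 gene SSA3 at 1.99 ± 2.15 CPM per kb, below BTN2 at 32.6 ± 8.98, which encodes a factor that gathers misfolded proteins. In mRNA the order differed, with the mitochondrial cochaperonin gene HSP10 first at 1040.0 ± 70.1 CPM per kb and SSE2 last at 35.3 ± 4.45. Per kb of unique windows mRNA of SSB1 (2022 ± 219 CPM) and SSB2 (1365 ± 123 CPM) stood above that of HSP10, whose windows are all unique.

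Together the members took 3.15 to 3.58% of all ORF footprints but only 1.30 to 1.53% of mRNA counts. Translation efficiency, the footprint CPM over the mRNA CPM of the same lysate after a prior count of 2, was above the median of the 5935 ORFs tested for 37 of 38 members, with a median log2 value of 0.48 over members and a median below 0 over all ORFs. SSA2 (5.79 ± 2.02), SSC1 (5.59 ± 0.815), SSA1 (4.66, lysates 2.98 to 6.73) and HSP60 (4.53 ± 0.665, SD, n = 9) had the largest mean ratios. Most windows of SSA1 and SSA2 are shared, and whether footprints and mRNA lose the same share of reads there was not tested. The member not above the median of all ORFs was SSA3 at 0.0456 ± 0.0468. Its mRNA lay at 70.5 to 119 CPM in every lysate, below the 124 to 146 CPM of SSA4, and its footprints amounted to 1.17 to 14.5 CPM, or 5 to 72 counts. SSA4, its closest inducible paralog in the list, had a ratio of 0.301 to 1.21, and FES1 0.589 ± 0.0856.

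Footprint levels were compared within complexes. The 8 CCT subunits, which sit once in each ring, had mean footprint levels of 168 to 264 CPM per kb, a coefficient of variation of 14.0% over subunits, and mRNA levels of 161 to 240 CPM per kb (16.1%). CCT6 was the highest subunit in footprints in 9 of 9 lysates and in mRNA in 6 of 9. Within a lysate the coefficient of variation of footprints ran between 8.35% in Δtma20 in YPD and 25.4% in wt in SD. For the ribosome-associated complex, in which the J protein Zuo1 pairs with the atypical Hsp70 Ssz1, SSZ1 over ZUO1 was 0.646 to 0.795 in footprints and 0.448 to 0.638 in mRNA. HSP10 over HSP60, the lid and the barrel of the mitochondrial chaperonin, was 0.874 to 1.16 in footprints, whereas in mRNA it was 2.87 to 4.35.

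**Figure D2:**
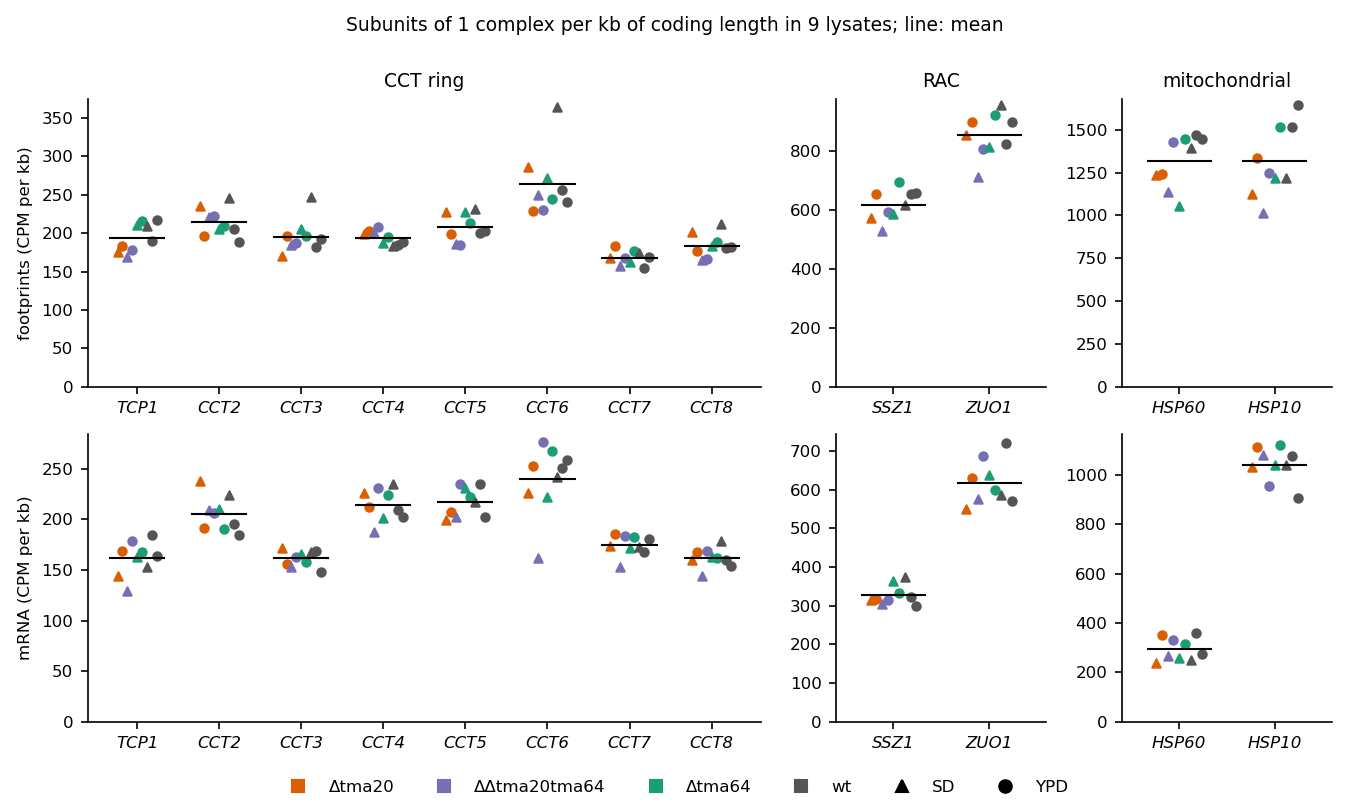
Level per kb of coding length (vertical axes, CPM per kb, from 0) of the CCT subunits, SSZ1 and ZUO1 of the ribosome-associated complex (RAC), and HSP60 and HSP10, in footprints (upper row) and mRNA (lower row), with 1 point per lysate and a line at the mean of 9. CCT6 is the highest CCT subunit in footprints of every lysate, and the mRNA of HSP10 exceeds that of HSP60 in all 9 while their footprints overlap.

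The first comparison set the 4 lysates without TMA20 (Δtma20 and ΔΔtma20tma64) against the 5 with it, with medium and TMA64 in the model. Footprints of 4 members fell, those of the Hsp90 gene HSP82, the Hsp110 exchange factor gene SSE1, the disaggregase gene HSP104 and the mitochondrial Hsp70 gene SSC1, and none rose (edgeR quasi-likelihood test, Benjamini-Hochberg adjusted over all 5369 ORFs tested, threshold 0.05). Among all ORFs tested 3.95% passed, 1.58% higher and 2.37% lower, so that 4 of 38 lower stands beside a background of 2.37%. The fold change was negative for 33 of 38 members, with a median log2 value of -0.11 against -0.004 over all ORFs. All members together took 3.15 to 3.23% of ORF footprints in the lysates without TMA20 and 3.28 to 3.58% in those with it, 2 ranges that do not overlap. In bulk lysates fewer cells of a kind and less RNA per cell cannot be told apart, and all values are shares of the library.

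**Figure D3:**
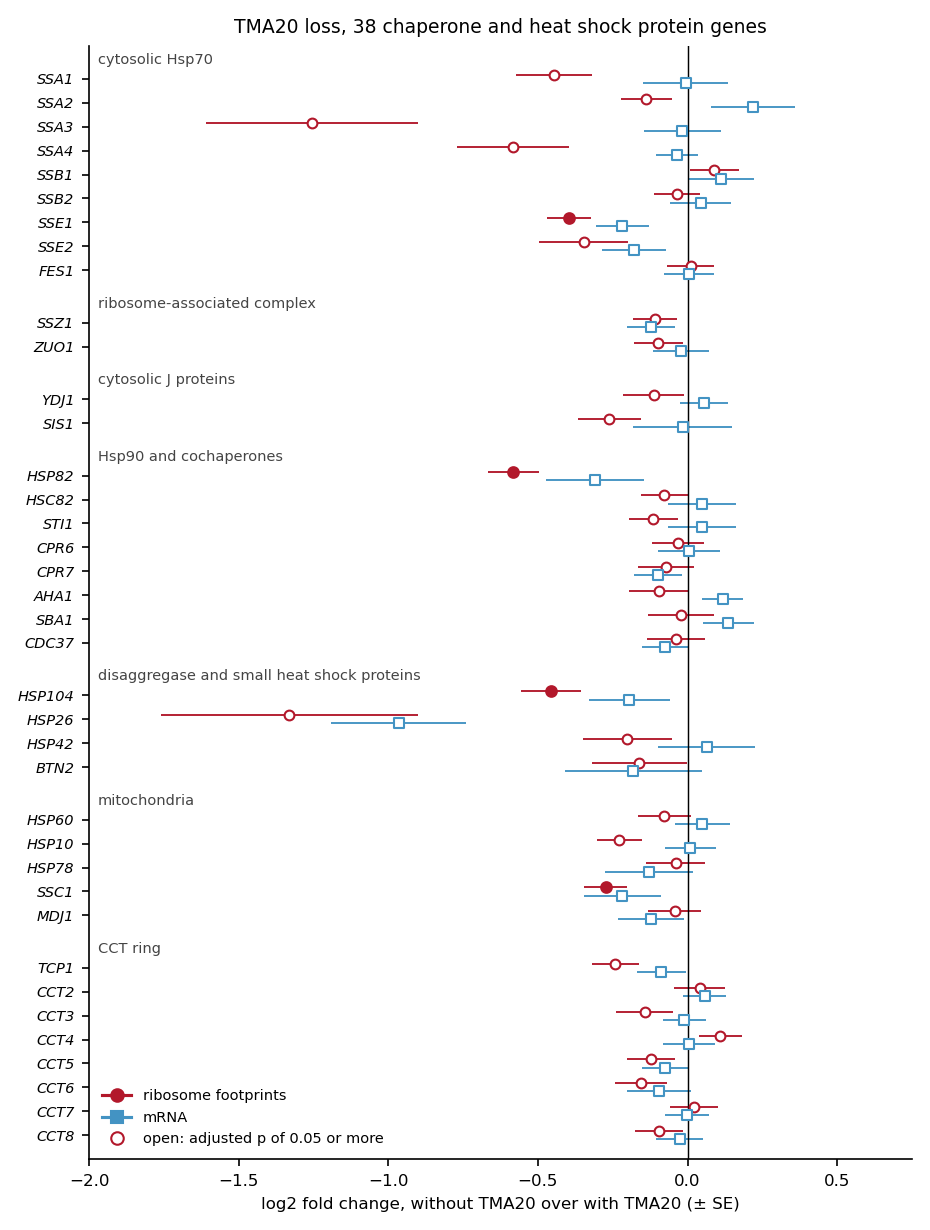
Log2 fold change without TMA20 over with TMA20 (horizontal axis, bars ± SE) for footprints (circles) and mRNA (squares) of the 38 members by role, filled where the adjusted p was under 0.05. Filled points are the footprints of HSP82, SSE1, HSP104 and SSC1 only, all left of 0, and HSP26 and SSA3 lie farthest left with the widest bars.

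HSP82 had the firmest difference. Its footprints were 822 CPM in SD and 832 CPM in YPD in Δtma20, and 795 and 706 CPM in ΔΔtma20tma64, against 1080.0 CPM in SD and 1264 CPM in YPD in Δtma64, 1272 CPM in wt in SD and 1095 and 1209 CPM in WT1 and WT2. All 4 lysates without TMA20 lay below all 5 with it, for a log2 fold change of -0.58 ± 0.08 (SE, adjusted p = 0.00318 by edgeR). The exact two-sided permutation test over the 126 splits of the lysates gave p = 0.00794, the smallest it can give. Its mRNA averaged 239.5 ± 50.3 CPM without TMA20 and 292 ± 58.6 CPM with it (SD, n = 4 and 5), groups that overlapped, with a log2 fold change of -0.31 ± 0.16 (adjusted p = 0.592 by edgeR). The constitutive copy HSC82 had a footprint change of -0.08 ± 0.08 (adjusted p = 0.643 by edgeR), with 3892, 4354, 3628 and 4011 CPM in the lysates without TMA20 and 3777 to 4924 CPM in those with it. Per unique kb, HSP82 over HSC82 was 0.198 ± 0.0194 in footprints without TMA20 and 0.279 ± 0.0321 with it (SD, n = 4 and 5), and in mRNA 0.212 ± 0.0364 and 0.267 ± 0.0358. The cochaperones of Hsp90 (STI1, CPR6, CPR7, AHA1, SBA1 and CDC37) lay between -0.11 and -0.02 in footprints, and none passed.

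SSE1, whose product exchanges the nucleotide of cytosolic Hsp70, showed the same separation. It had 1971 and 2121 CPM in SD and YPD in Δtma20 and 1809 and 1964 CPM in ΔΔtma20tma64, against 2369 and 2768 CPM in Δtma64, 2691 CPM in wt in SD, and 2520.1 and 2732 CPM in WT1 and WT2. The groups did not overlap, with a log2 fold change of -0.40 ± 0.07 (adjusted p = 0.0122 by edgeR, exact two-sided permutation p = 0.00794). Its mRNA averaged 560 ± 43.7 CPM without TMA20 and 643 ± 72.6 CPM with it (SD, n = 4 and 5), at an adjusted p of 0.455 by edgeR. The SSE1 call was lost when ΔΔtma20tma64 in YPD or Δtma20 in SD was left out (adjusted p up to 0.0527 by edgeR) and in YPD lysates alone (0.125).

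HSP104, which has both kinds of element in its promoter as printed above, had 914 and 822 CPM in SD and YPD in Δtma20 and 1172 and 867 CPM in ΔΔtma20tma64, against 1219 and 1179 CPM in Δtma64, 1303 CPM in wt in SD, and 1362 and 1316 CPM in WT1 and WT2. ΔΔtma20tma64 in SD came close to the lowest lysate with TMA20, but the groups did not overlap (log2 fold change -0.46 ± 0.10, adjusted p = 0.0248 by edgeR, exact two-sided permutation p = 0.00794). The call was lost when WT2, Δtma64 in YPD, ΔΔtma20tma64 in YPD or either Δtma20 lysate was left out (adjusted p up to 0.11), without both shallow SD lysates (0.087) and in SD lysates alone (0.187), all by edgeR. The other genes with the same arrangement of elements did not pass, at -0.20 ± 0.15 for the small heat shock protein gene HSP42 and -0.04 ± 0.10 for the mitochondrial disaggregase gene HSP78.

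SSC1, the mitochondrial Hsp70 that drives protein import, had the smallest of the changes that passed. Footprints were 2141 and 2555 CPM in SD and YPD in Δtma20 and 1973 and 2281 CPM in ΔΔtma20tma64, against 2188 and 2985 CPM in Δtma64, 2544 CPM in wt in SD, and 3248 and 3062 CPM in WT1 and WT2. Here the groups overlapped, because SD lysates were lower than YPD lysates in both (log2 fold change -0.27 ± 0.07, adjusted p = 0.0454 by edgeR, exact two-sided permutation p = 0.0635, which takes no account of medium). Leaving out any 1 of the 9 lysates lost the call, with adjusted p of 0.0541 to 0.172.

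**Figure D4:**
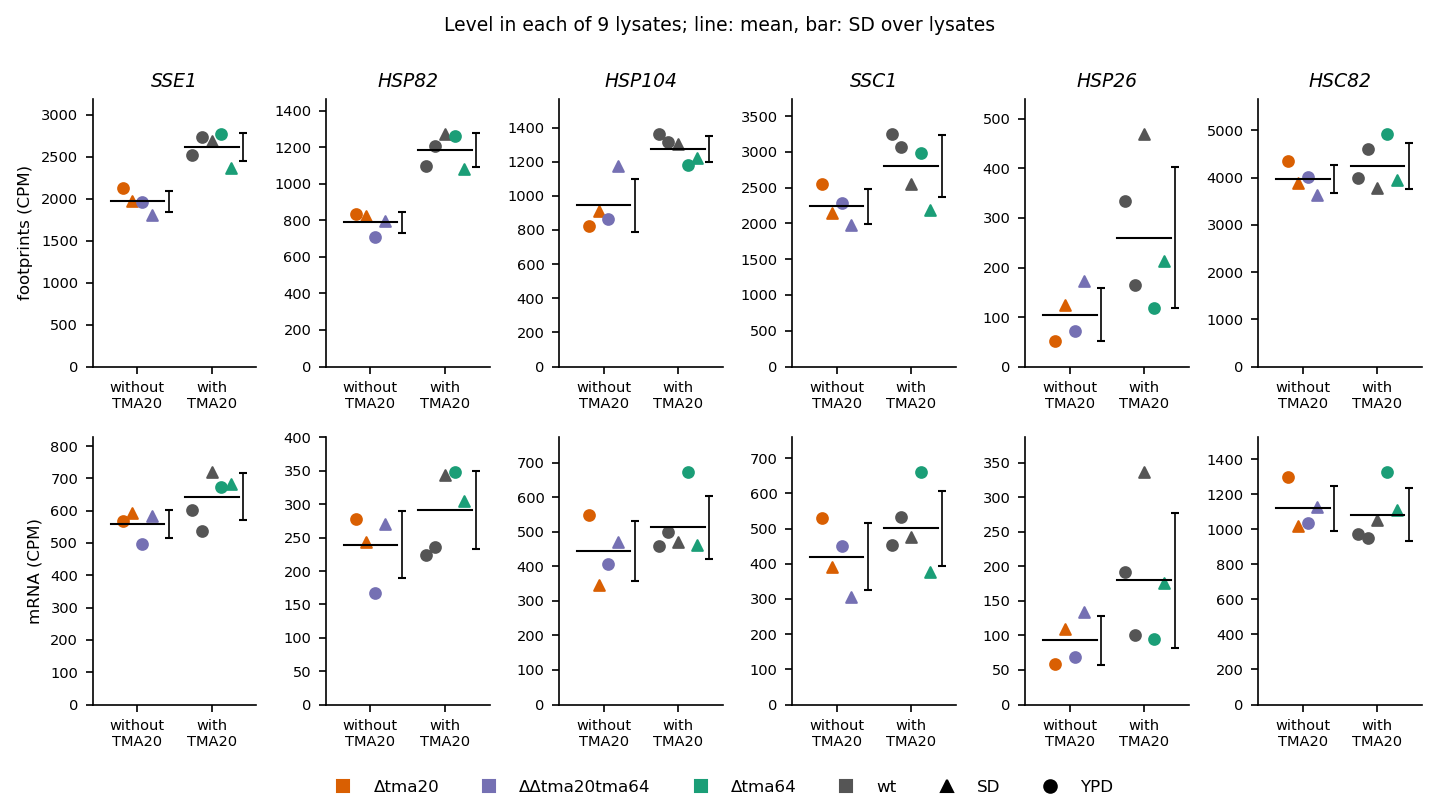
Footprints (upper row) and mRNA (lower row) in CPM, from 0, of SSE1, HSP82, HSP104, SSC1, HSP26 and HSC82 in each of 9 lysates, the 4 without TMA20 left of the 5 with it, with color for strain, shape for medium, a line at the mean and a bar of 1 SD. In the upper row the points of SSE1, HSP82 and HSP104 without TMA20 lie below all points with it, while those of SSC1, HSP26 and HSC82 overlap, as do all 6 genes in the lower row.

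The largest fold changes in the list did not pass. HSP26, a small heat shock protein that holds unfolded proteins, had 125 and 51.6 CPM of footprints in SD and YPD in Δtma20 and 172 and 71.7 CPM in ΔΔtma20tma64, against 212 and 118 CPM in Δtma64, 469 CPM in wt in SD, and 335 and 164 CPM in WT1 and WT2. It was higher in SD than in YPD for each mutant and varied more than any other member but SSA3, so that a log2 fold change of -1.33 ± 0.43 had an adjusted p of 0.167 by edgeR. Its mRNA had a log2 fold change of -0.97 ± 0.23 (unadjusted p = 0.00141 and adjusted p = 0.221, both by edgeR). SSA3 had -1.25 ± 0.35 (adjusted p = 0.0608), SSA1 -0.45 ± 0.13 (0.0712) and SSA4 -0.58 ± 0.19 (0.117), all by edgeR. Counting with no regard to strand brought SSA1 under the threshold, although it had at most 4 opposite-strand footprints in any library. The cause was not tested. The count of members called was sensitive to the test, since DESeq2 called 9 (SSA1, SSA3, SSA4, SSE1, HSP82, HSP104, HSP26, HSP10 and SSC1), beside 5.57% of all ORFs. By edgeR 12 had an unadjusted p under 0.05, beside 18.6% of all ORFs. Leaving out 1 lysate gave 1 to 6, with 1 without Δtma20 in SD or ΔΔtma20tma64 in YPD and 2 without Δtma20 in YPD or Δtma64 in YPD. The HSP82 call held in all 9 omissions. Without both shallow SD lysates 2 members passed, HSP82 and SSE1, beside 2.01% of all ORFs.

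Among the CCT genes, whose footprints ran between -0.24 and 0.11, none passed, although the groups of lysates did not overlap for 2 of them. TCP1 had 295, 307, 285 and 299 CPM without TMA20 and 319.5 to 364 CPM with TMA20, a change of -0.24 ± 0.08 (adjusted p = 0.0993 by edgeR). CCT4 had 315, 321, 317 and 331 CPM without TMA20 and 291 to 309 CPM with TMA20 (0.11 ± 0.07, adjusted p = 0.445 by edgeR). For TCP1 and CCT4 alike the exact two-sided permutation test gave p = 0.0159. In all, 4 members lay wholly below and 1 wholly above in footprints, beside 2.83% and 2.78% of all ORFs tested. Neither SSB copy passed, with SSB1 at 0.09 ± 0.08 and SSB2 at -0.04 ± 0.08 (adjusted p = 0.607 and 0.854 by edgeR). SSB1 had 2149.5, 2448, 1686 and 2204 CPM without TMA20 and 1743 to 2130.0 CPM with it, and SSB2 1572, 1854, 1399 and 1708 CPM without and 1506 to 1776 CPM with it. SSA2 stood at -0.14 ± 0.09 (adjusted p = 0.411 by edgeR), with 2977, 3314, 2309 and 3606 CPM without TMA20 and 2826 to 4242 CPM with it.

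In mRNA 0 of 38 members passed for TMA20 loss by edgeR, beside 0.0838% of the 5966 ORFs tested. At an unadjusted p under 0.05 there were 2, HSP26 and SSE1, beside 10.1% of ORFs, and DESeq2 called 0. The median log2 fold change was -0.02, with 23 of 38 negative. No member had groups without overlap in mRNA or in translation efficiency, beside 1.27% of ORFs above and 0.972% below in mRNA and 1.13% and 1.23% in efficiency. Translation efficiency likewise gave 0 of 38 by edgeR beside 0.0674% of 5935 ORFs, with 0 by DESeq2. At an unadjusted p under 0.05 by edgeR there were 3 (SSA3, SSA4 and HSP10), a share near the 7.06% of all ORFs. Its log2 changes were negative for 30 of 38 members (median -0.13 against -0.01 over all ORFs). For HSP82 the change in efficiency was -0.28 ± 0.20, for SSE1 -0.19 ± 0.11 and for HSP104 -0.27 ± 0.18, none of which passed. HSP104 mRNA averaged 443 ± 87.1 CPM without TMA20 and 512 ± 91.2 CPM with it (SD, n = 4 and 5). SSC1 mRNA averaged 420 ± 94.8 and 500 ± 106 CPM in these groups. Its groups differed in mean log2 value by -0.26 in mRNA, -0.32 in footprints and only -0.06 in efficiency. In SD lysates alone 5 members passed in mRNA (HSP82, BTN2, HSP78, SSC1 and CCT6), against 0 in the pooled fit, but so did 9.88% of all ORFs in that fit.

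Loss of TMA64 was tested in the same model, with 4 lysates without it (Δtma64 and ΔΔtma20tma64) and 5 with it. No member passed in footprints, mRNA or translation efficiency by edgeR, at a background of 0.0559%, 0.0168% and 0.0168%. The count was 0 in each measure at an unadjusted p under 0.05 as well, beside 5.22%, 2.23% and 2.26% of ORFs, and 0 by DESeq2. Log2 fold changes of footprints ran between -0.62 and 0.15 with a median of -0.08. HSP82 had -0.08 ± 0.08, SSE1 -0.07 ± 0.07, HSP104 0.01 ± 0.10 and SSC1 -0.14 ± 0.07. HSP26 footprints were lower in every mutant than in wt of the same medium. On the log2 scale they differed in YPD and SD by -0.99 and -1.14 in Δtma64. The values were -2.18 and -1.91 in Δtma20, and -1.71 and -1.44 in ΔΔtma20tma64. These are single lysates of a gene for which WT1 and WT2 differed by 1.03. In SD lysates alone 1 member passed in footprints (the Hsp90 cochaperone gene SBA1), beside 3.62% of all ORFs, and 4 in mRNA (SSA1, BTN2, SSC1 and CCT6), beside 4.96%.

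Whether the effect of TMA20 loss differed with TMA64 or with medium was tested by interaction terms. None of the members passed in footprints, beside 0.149% of ORFs for TMA64 and 0.112% for medium, or in mRNA, beside 0% for both (edgeR). At an unadjusted p under 0.05 by edgeR there were 8 in footprints and 3 in mRNA for TMA64, beside 8.59% and 1.83% of ORFs, and 3 and 0 for medium, beside 5.31% and 2.18%. DESeq2 called 1, HSP26, in footprints for TMA64, beside 0.522% of ORFs, and 0 elsewhere. The HSP26 interaction with TMA64 was 1.64 ± 0.45 in footprints (adjusted p = 0.355 by edgeR) and it passed when WT1 or WT2 was left out. The exchange factor gene SSE2 had 0.71 ± 0.20 (adjusted p = 0.285) and HSP42 0.69 ± 0.21 (0.319), and BTN2 had -0.71 ± 0.24 (0.367), all by edgeR. SSE2 passed without wt in SD or without ΔΔtma20tma64 in YPD, and BTN2 without wt in SD.

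The second axis of the design set the 4 SD lysates against the 5 YPD lysates with strain in the model, and here members moved in both directions. In footprints 8 members rose (SSA3, SSA4, HSP26, HSP42, BTN2, SSE2, SIS1 and CCT6) and 4 fell (SSA1, SSA2, HSP10 and SSC1), by edgeR. The background was 14.3% higher and 11.3% lower of 5369 ORFs (25.5% in all), so that the member shares of 8 and 4 of 38 lie near it. The median log2 fold change was -0.003 over members and -0.005 over all ORFs. The groups did not overlap for 0 members above and 3 below (SSA2, HSC82 and HSP10), beside 10.2% and 9.22% of ORFs. Among the 4 disaggregase and small heat shock protein genes 3 rose, among the 5 mitochondrial genes 2 fell and none rose, and none of the 8 genes of Hsp90 and its cochaperones passed.

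SD libraries differed from YPD libraries in other ways too. The Ribo-Seq libraries of SD held 49104342 to 56510273 multimapping reads, against 29552582 to 36760645 in YPD, and the shallowest and the deepest were both SD libraries. Unassigned reads made up 28.3 to 39.1% of uniquely mapped RNA-Seq reads in SD and 18.8 to 23.6% in YPD. Of 20 Msn2 and Msn4 target genes, taken as a marker of stress or slow growth, 11 rose and 1 fell in footprints in SD, beside 14.3% and 11.3% of all ORFs. Their summed footprints were 6833 to 11907 CPM in SD and 4161 to 7103 CPM in YPD. The part of these differences in the results of the members was not tested. Without the 2 shallow SD lysates 6 members passed (SSA1, SSA2, SSB1, SSE2, HSP60 and SSC1) in place of 12, beside 12.6% of all ORFs.

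Footprints of the stress-inducible Hsp70 genes SSA3 and SSA4 rose. SSA4 had 119.9 CPM in Δtma20, 102 CPM in Δtma64, 116 CPM in ΔΔtma20tma64 and 175 CPM in wt in SD, against 44.0, 69.7 and 41.2 CPM in these mutants and 104 and 93.1 CPM in WT1 and WT2 in YPD. The log2 fold change was 1.04 ± 0.14 (adjusted p = 0.000381 by edgeR) with mRNA at -0.02 ± 0.07 (adjusted p = 0.89 by edgeR), and translation efficiency rose by 1.07 ± 0.17 (adjusted p = 0.000847 by edgeR). SSA3 had 2.92, 5.48, 2.60 and 14.5 CPM in SD, against 1.31, 2.43, 1.17, 3.18 and 1.28 CPM in YPD, a log2 fold change of 1.78 ± 0.37 (adjusted p = 0.00334 by edgeR) from counts of at most 72. Translation efficiency of SSA4 was 0.928, 0.787, 0.896 and 1.21 in Δtma20, Δtma64, ΔΔtma20tma64 and wt in SD, all above the 0.301 to 0.712 of YPD. That of SSA3 was 0.0342, 0.0623, 0.0290 and 0.165 in SD against 0.0166 to 0.0377 in YPD, which overlap (1.70 ± 0.38, adjusted p = 0.0131 by edgeR). The footprint and the efficiency call of SSA3 were lost without wt in SD, its highest lysate, with an adjusted p by edgeR of 0.0594 for footprints and 0.187 for efficiency. Without both shallow SD lysates the adjusted p by edgeR was 0.0713 for SSA4 and 0.121 for SSA3 in footprints, and 0.0644 and 0.422 in efficiency, so that none of these calls held. SSE2, the lesser-used Hsp110 gene, rose by 0.47 ± 0.10 (adjusted p = 0.00399 by edgeR), though the groups overlapped, with 122, 134, 167 and 181 CPM in SD against 86.0, 115, 91.0, 149 and 139 CPM in YPD.

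The main Hsp70 genes fell in the same lysates. SSA1 had 1566, 1792, 1751 and 2006 CPM in Δtma20, Δtma64, ΔΔtma20tma64 and wt in SD, against 1677, 2798, 2219, 3538 and 2854 CPM in Δtma20, Δtma64, ΔΔtma20tma64, WT1 and WT2 in YPD (log2 fold change -0.46 ± 0.10, adjusted p = 0.00602 by edgeR). SSA2 had 2977, 2826, 2309 and 2827 CPM in SD, against 3314, 3879, 3606, 4242 and 3632 CPM in YPD, with no overlap (log2 fold change -0.44 ± 0.09, adjusted p = 0.00204 by edgeR, exact two-sided permutation p = 0.00794). Both rest on the minority of windows that tell the copies apart, and the SSA1 call was lost when reads of both strands were counted (adjusted p = 0.277 by edgeR). Yet SSA1 had at most 4 opposite-strand footprints in any library, and the cause of the loss was not tested. SSA2 also fell in translation efficiency, with 4.75, 4.61, 3.45 and 4.50 in SD against 4.38 to 9.53 in YPD, by 0.57 ± 0.16 on the log2 scale (adjusted p = 0.0361 by edgeR), a call lost when any lysate but those of Δtma20 was left out (adjusted p up to 0.223), or both shallow SD lysates (0.147 by edgeR). This efficiency call was also lost when the deletions were fitted without their interaction. The 4 SSA genes summed to 0.483 ± 0.0151% of ORF footprints in SD and 0.620 ± 0.0870% in YPD (SD, n = 4 and 5), and to 0.134 ± 0.0125% and 0.128 ± 0.0162% of mRNA counts.

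Small heat shock proteins and the sorting factor rose. HSP26 reached 125, 212, 172 and 469 CPM in Δtma20, Δtma64, ΔΔtma20tma64 and wt in SD, against 51.6, 118 and 71.7 CPM in the mutants and 335 and 164 CPM in WT1 and WT2 in YPD. Each strain was higher in SD than in its own YPD lysates, which the fit with strain uses (log2 fold change 1.05 ± 0.22 in footprints, adjusted p = 0.0161, and 1.01 ± 0.16 in mRNA, adjusted p = 0.00164, by edgeR). The footprint call was lost without wt in SD or either ΔΔtma20tma64 lysate (adjusted p up to 0.155). It was also lost when the deletions were fitted without their interaction. HSP42 had 112, 113, 144 and 166 CPM in SD, against 74.2, 90.3, 86.3, 123 and 89.8 CPM in YPD (0.58 ± 0.10, adjusted p = 0.00118 by edgeR). The genes with the same arrangement of elements, HSP104 at 0.14 ± 0.08 and HSP78 at -0.20 ± 0.08, did not pass (adjusted p = 0.258 and 0.0872 by edgeR). BTN2 rose more in mRNA, with 87.6, 65.7, 49.6 and 109 CPM in SD against 50.5, 45.4, 23.6, 26.1 and 38.1 CPM in YPD (1.12 ± 0.19, adjusted p = 0.00232 by edgeR), than in footprints, with 55.6, 49.5, 34.2 and 56.6 CPM in SD against 27.3 to 40.7 CPM in YPD (0.51 ± 0.12, adjusted p = 0.00813 by edgeR). Its translation efficiency changed by -0.60 ± 0.27 (adjusted p = 0.192 by edgeR), which passed only in the fit with the lysate as a block, where 5 members passed in place of 4, beside 10.6% of ORFs. Without both shallow SD lysates the footprint calls of HSP26, HSP42 and BTN2 were lost (adjusted p = 0.411, 0.052 and 0.221 by edgeR), as was the mRNA call of BTN2 (0.0569), while the mRNA call of HSP26 held (0.047).

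Of the 5 mitochondrial members, SSC1 and HSP10 fell in footprints and SSC1 and HSP60 in mRNA. SSC1 fell in footprints by 0.31 ± 0.07 and in mRNA by 0.43 ± 0.12 on the log2 scale (adjusted p = 0.00626 and 0.0271 by edgeR), with 391, 377, 307 and 476 CPM of mRNA in Δtma20, Δtma64, ΔΔtma20tma64 and wt in SD against 531, 660.5, 451, 454 and 534 CPM in YPD. HSP10 fell in footprints by 0.31 ± 0.07 (adjusted p = 0.00679 by edgeR), without overlap, with 361, 391, 326 and 391 CPM in SD against 401 to 529 CPM in YPD. Its partner HSP60 fell in mRNA by 0.37 ± 0.10 (adjusted p = 0.0217 by edgeR), also without overlap, with 408, 447, 460.2 and 431 CPM in SD against 475 to 615 CPM in YPD. The mRNA calls depended on single lysates: that of SSC1 was lost without any 1 mutant lysate (adjusted p up to 0.0978) and that of HSP60 without wt in SD or either Δtma20 lysate (up to 0.109). Without both shallow SD lysates the SSC1 calls held, and those of HSP10 in footprints (adjusted p = 0.0669 by edgeR) and HSP60 in mRNA (0.29) were lost.

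CCT6 was the only CCT subunit to pass. Its footprints rose to 469.7, 447, 409 and 598 CPM in Δtma20, Δtma64, ΔΔtma20tma64 and wt in SD, against 376, 402, 377, 420.0 and 396 CPM in YPD (0.31 ± 0.09, adjusted p = 0.0186 by edgeR). Its mRNA had 371, 365, 266 and 397 CPM in SD, all below the 412 to 454 CPM of YPD, but did not pass (-0.30 ± 0.11, adjusted p = 0.0768 by edgeR). Translation efficiency of CCT6 rose by 0.61 ± 0.14 (adjusted p = 0.015 by edgeR), with 1.22 to 1.54 in SD and 0.830 to 1.02 in YPD. The footprint call was lost without WT2, wt in SD or either Δtma20 lysate (adjusted p up to 0.117) and the efficiency call without either Δtma20 lysate (up to 0.0742). Both were lost without the shallow SD lysates (0.486 and 0.108, by edgeR). For translation efficiency 3 members rose (SSA3, SSA4 and CCT6) and 1 fell (SSA2), beside 5.04% and 2.41% of all ORFs (7.45% in all). Without wt in SD 2 passed, and without both shallow SD lysates 0 did, beside 1.12% of ORFs, with 4 at an unadjusted p under 0.05, beside 14.2% (edgeR). Groups did not overlap for 2 members above (SSA4 and CCT6) and 5 below (SSE1, FES1, SSZ1, CPR6 and HSP10), beside 6.35% and 6.2% of ORFs.

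In mRNA 4 members rose in SD (BTN2, HSP26, YDJ1 and FES1) and 2 fell (SSC1 and HSP60), beside 14.1% and 11.9% of 5966 ORFs (26% in all). YDJ1, the main cytosolic J protein gene, had 420.4, 374, 377 and 441 CPM in SD against 348, 331, 336, 308 and 306 CPM in YPD (0.30 ± 0.09, adjusted p = 0.0256 by edgeR). FES1 had 206, 219, 219 and 205 CPM in SD against 154 to 195 CPM in YPD (0.29 ± 0.08, adjusted p = 0.0291 by edgeR). For both genes the groups did not overlap, as for CCT2 above and HSP60, TCP1 and CCT6 below (3 and 3 members, beside 12.9% and 12.2% of ORFs). Footprints of YDJ1 and FES1 did not pass, at 0.12 ± 0.10 and -0.02 ± 0.08. The YDJ1 call was lost without WT2, wt in SD or either Δtma20 lysate (adjusted p up to 0.168) and the FES1 call without WT2, wt in SD or any lysate of Δtma64 or ΔΔtma20tma64 (up to 0.102). SIS1, the other J protein gene, which has 3 overlapping heat shock elements, rose in footprints by 0.34 ± 0.10 (adjusted p = 0.0318 by edgeR). That call was lost without WT2, wt in SD or either Δtma20 lysate (up to 0.206). The mRNA count dropped to 3 without either Δtma20 lysate and to 2 (HSP26 and SSC1) without both shallow SD lysates, beside 10.1% of ORFs then. Those 2 lysates were shallow in footprints only. In the fit without both, the adjusted p by edgeR was 0.442 for YDJ1 and 0.0897 for FES1 in mRNA, and 0.597 for SIS1 in footprints.

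**Figure D5:**
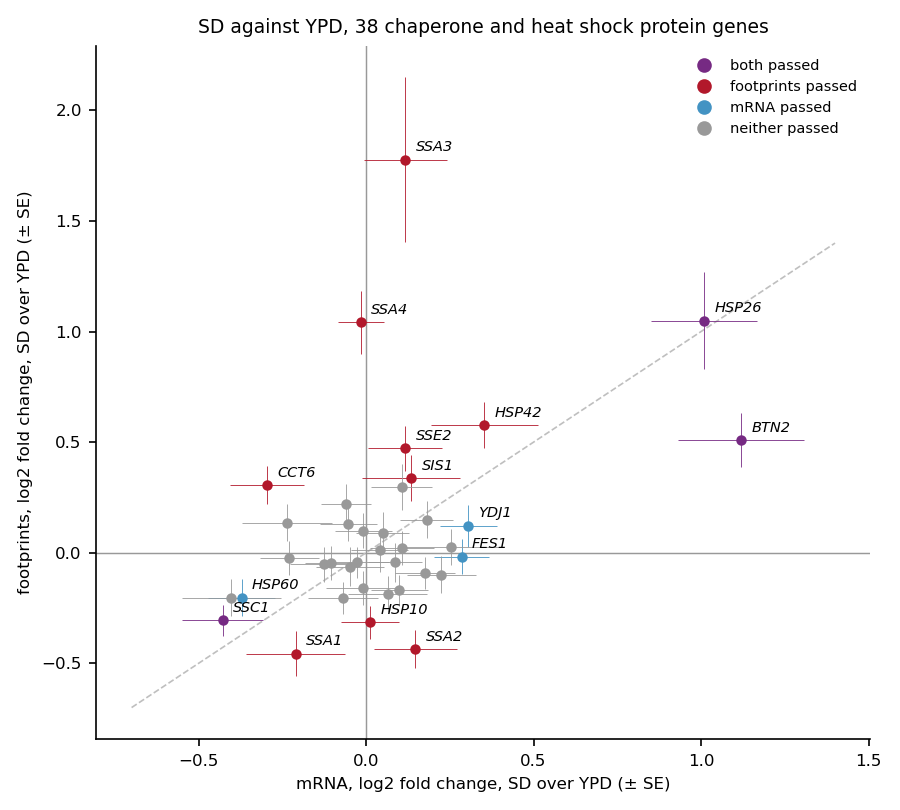
Log2 fold change of SD over YPD in mRNA (horizontal axis) and footprints (vertical axis), with SE bars, for the 38 members, colored by which measure had an adjusted p under 0.05, with a dashed line where both are equal. SSA3 and SSA4 lie far above the line at mRNA changes near 0, HSP26 lies on it, and BTN2 lies below it.

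Grouped by promoter match, members with a heat shock element had a median footprint change of -0.16 for TMA20 loss (13 genes, -0.46 to 0.01). Those without a match, which may hold elements of another form, had -0.10 (25 genes, -1.33 to 0.11). The 82 ORFs tested that hold the element had a median of -0.006, members included. Members with at least 2 stress response elements had a median of -0.45 (8 genes, -1.33 to -0.04), against -0.10 for the other 30, while all 449 ORFs tested with at least 2 had a median of -0.03. In SD against YPD the medians were -0.02 with and 0.01 without a heat shock element, and 0.08 with at least 2 and -0.02 with fewer stress response elements. These medians are descriptions, since the genes were not sampled at random.

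Related gene lists were read beside the members. Among all ORFs tested in footprints, 1.58% rose and 2.37% fell for TMA20 loss, and 14.3% rose and 11.3% fell in SD. For TMA20 loss in footprints 0 of 6 stress regulators passed, with HSF1 at 0.11 ± 0.10, MSN2 at 0.23 ± 0.10 and MSN4 at 0.32 ± 0.13, and 0 of 20 Msn2 and Msn4 targets, with a median of -0.0008. Of 10 genes tested of a list of the Hsf1 regulon, which holds the member SIS1, 1 passed, HCH1, an activator of Hsp90, which rose by 0.63 ± 0.08 (adjusted p = 0.00185 by edgeR). Of 9 genes of the nascent polypeptide-associated complex and prefoldin 2 rose, the prefoldin genes GIM3 (0.45 ± 0.09) and PFD1 (0.49 ± 0.10). The cyclophilin gene CPR1 fell by 0.32 ± 0.08 on the log2 scale, and SNL1 (0.40 ± 0.10) and ZIM17 (0.34 ± 0.09), partners of cytosolic and mitochondrial Hsp70, rose. CPR1 comes from a list of other cochaperones and prolyl isomerases that also holds HCH1. SNL1 comes from one of other J proteins and exchange factors, and ZIM17 from one of other mitochondrial chaperones. The genes of these lists that did not pass are not given here. None of 12 endoplasmic reticulum chaperone genes passed. For SD against YPD, KAR2, the Hsp70 of the endoplasmic reticulum, fell by 0.32 ± 0.07 on the log2 scale (adjusted p = 0.00413 by edgeR), and MGE1, the exchange factor of mitochondrial Hsp70, by 0.29 ± 0.08 (adjusted p = 0.0225 by edgeR). KAR2 and MGE1 are single genes picked from their lists. Of 12 other mitochondrial chaperone genes 4 fell and none rose in footprints in SD, beside the 11.3% and 14.3% of all ORFs.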

How the data were processed

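Ribosome footprints and poly(A) mRNA were sequenced from 9 lysates (18 libraries). According to the study's methods the authors trimmed reads with cutadapt 1.18, aligned them to the R64 assembly with STAR 2.5.3a, and deposited the counts of uniquely mapped reads per gene as whole numbers, with columns for both strands, the gene's strand and the opposite strand. The gene's strand was used here, and ORF counts only (6713), with rows that name no gene left out of library sizes. Such reads made up 18.8 to 39.1% of uniquely mapped reads in RNA-Seq.

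Counts were filtered by expression (minimum count 10), scaled by TMM and tested with edgeR 4.0.16 by a robust quasi-likelihood fit in R 4.3.3, with two-sided p-values adjusted by Benjamini-Hochberg over all ORFs tested and a threshold of 0.05. TMA20 and TMA64 loss were fitted with medium and the other deletion, SD against YPD with both deletions and their interaction, and translation efficiency as the interaction of each term with assay over 18 libraries. The main efficiency fit had no block for the lysate, so it took no account of the pairing of footprints and mRNA within a lysate. CPM values used a prior count of 2 on the log2 scale. For single genes an exact permutation test ran over the 126 splits of 9 lysates into 4 and 5. It took no account of strain or medium and was not adjusted over genes. With 2 replicates for wt in YPD only, the spread behind the p-values comes mostly from how far unreplicated lysates depart from the fitted terms. Simulated counts were used only for TMA20 loss in footprints and in mRNA, and held no effect of medium or TMA64. The other comparisons were not checked in this way, and the outcome is not given here. Footprint counts carry no molecular identifiers, and depth limits SSA3 most.

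Values in every lysate are given for members that passed for a deletion, for up to 8 with the largest change among those that passed between media, and for near-identical pairs. Other members and genes of related lists are named with their test. HSP26 and the regulators HSF1, MSN2 and MSN4 were singled out after their values were seen. The members and the other gene lists were chosen with earlier results of these data known. Coordinates, coding sequences and promoter stretches are from RefSeq for R64, in which 6013 ORFs were found by locus tag. Alternatives were DESeq2 1.42.0 with its size factors, no filter, counts of both strands, the deletions without their interaction for SD against YPD, each medium alone, the lysate as a block, and leaving out each lysate or, chosen after seeing the data, both shallow SD lysates. Pairing of assays comes from the shared lysate. Deviations of a library correlated weakly with those of the other assay of its own lysate (r of 0.0724 to 0.192). This was the best match in 7 of 9 lysates, and not in WT1 or wt in SD. Both lysates of each mutant gave the same r, so they do not count separately, and the check is weak.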

Additional observations from a re-analysis of the deposited data

Results flagged for a closer look

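In 76 groups of 4 or 5 lysates tested, 1 lysate lay far from the rest of its group in 4, beside about 1 in 20 that chance gives. HSP104 mRNA with TMA20 was highest in Δtma64 in YPD, at 672.789 CPM, against 457 to 500.5 CPM in the other lysates with TMA20. SSA4 mRNA in SD was highest in wt, at 144.327 CPM, while the 3 mutants lay near 129 CPM. HSP10 mRNA in SD was highest in ΔΔtma20tma64, at 346.698 CPM, a small excess over lysates that hardly differed. HSP60 footprints in YPD were lowest in Δtma20, at 2130.5 CPM. The cause of each was not tested.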

How the results depend on the processing

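Counts of members are given by edgeR unless a tool is named. For TMA20 loss in footprints 4 passed, 9 by DESeq2, 2 without both shallow SD lysates, and 1 to 6 when 1 lysate was left out. For SD against YPD in footprints 12 passed, 6 without both shallow lysates and 10 to 13 with 1 lysate left out. In mRNA SD against YPD gave 6, 2 without both and 3 to 7 with 1 left out, and in translation efficiency 4, 0 without both and 2 to 3 with 1 left out. The interaction of TMA20 with TMA64 in footprints gave 0, 1 by DESeq2, and 0 to 2 with 1 left out. In SD lysates alone TMA20 loss gave 5 in mRNA, and TMA64 loss gave 1 in footprints and 4 in mRNA, against 0 in each pooled fit. The cause of these differences was not tested. With the lysate as a replicate block, translation efficiency gave 0 for TMA20 loss, 0 for TMA64 loss and 5 for SD against YPD. Other counts equalled the main count or stayed within 1.5 times of it (167 values), and many of these are a 0 that stayed 0. Single genes were followed for 29 results only. These were the results that passed in the main fit, with SSA1, SSA3 and HSP26 for TMA20 loss in footprints, so that few could be gained. Of their values 325 kept their side of the threshold, 85 were lost and 7 gained, and no direction reversed. The number of lysates, 1 per mutant and medium, limits all of them, and 5 to 72 footprint counts per library limit SSA3.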

Other observations

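Genes outside the list gave these values. Summed footprints of 20 Msn2 and Msn4 targets were lowest in Δtma20 in YPD (4161 CPM) and highest in ΔΔtma20tma64 in SD (11907 CPM). Of these genes 3 (TPS1, GRE1 and SPI1) passed for the interaction of TMA20 with TMA64 in footprints by edgeR, beside 0.149% of all ORFs. In SD against YPD footprints of HSP12, a membrane-associated stress protein gene, rose by 2.29 on the log2 scale (adjusted p = 0.00229 by edgeR), and those of HSP31, a chaperone of the DJ-1 family, by 0.86 (adjusted p = 0.000757 by edgeR). The other yeast genes of the HSP31 family are not given here.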
